A study of Mus musculus with 23 samples.

Results

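The genes described here are 9 that make, recycle or spend nicotinamide adenine dinucleotide (NAD): Nmrk1, Nmrk2, Nampt, Nmnat1, Nmnat3, Nadsyn1, Nnmt, Sirt1 and Sirt3. They were matched by gene symbol. All 9 were found among the 12831 genes of the quadriceps count table and 8 among the 16962 genes of the epididymal fat table; Nmrk2 was not analysed in fat. The 9 genes were named with earlier results of these data known, and may have been selected on them, among them the quadriceps levels of KPC mice against the other groups. For this reason their values in the quadriceps comparisons that involve KPC are given as a description, without FDRs, and nothing is read from how many of them moved. Tests are reported for quadriceps of KPC IL6KO against no tumor mice, for fat and for a wider list of NAD genes.

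The 23 libraries, each from 1 mouse, comprised 11 of quadriceps (3 no tumor, 4 KPC, 4 KPC IL6KO) and 12 of the epididymal fat pad (4 in each group). All hosts were male mice with unedited genomes, 8 weeks old at surgery, of the strain C57BL/6 by the labels and C57BL/6J by the study's methods. They underwent pancreatic surgery without cells (no tumor) or with injection of tumor cells. KPC cells came from a pancreatic tumor that arose in a genetically engineered mouse; the KPC group received 1 clone transfected with a CRISPR/Cas9 plasmid with a null guide RNA, and the KPC IL6KO group received 1 clone in which Il6 had been edited. With 1 clone per line, the effect of Il6 and other differences between the clones cannot be told apart. Mice of all groups were killed together once KPC mice wasted. The labels number quadriceps libraries 1 to 4 and fat libraries 5 to 8, but whether some mice gave both tissues is not given in the sources used here. Quadriceps and fat libraries were prepared separately, by the study's methods with different kits and amounts of RNA, so levels are compared only within a tissue. A further no tumor quadriceps library that the authors set aside was not analysed here.

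NAD is the electron carrier of glycolysis and mitochondrial oxidation, and it is also cut by enzymes that release nicotinamide. Cells recover that nicotinamide by the salvage route: Nampt encodes the rate-limiting enzyme, which turns nicotinamide into nicotinamide mononucleotide, and the Nmnat enzymes, which transfer adenylate, turn the mononucleotide into NAD. Nmrk1 and Nmrk2 encode kinases that make the same mononucleotide from nicotinamide riboside, and Nmrk2 is the form enriched in skeletal and heart muscle. Nadsyn1 performs the last step from nicotinic acid or tryptophan, Nnmt methylates nicotinamide and so removes it from salvage, and the sirtuins spend NAD as deacylases, Sirt1 in the nucleus and Sirt3 in mitochondria.

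The promoter windows of Nmrk2, Sirt1 and Nampt are shown because these genes had the largest fall and the rises among the 9 in KPC quadriceps. RefSeq windows on GRCm38.p6 run from 250 bases before to 50 bases after each start site, and 8 of the 9 genes matched one, all but Nnmt. Each sequence is written 5′ to 3′ in the direction of transcription, and capitals mark TATAAA in Nmrk2 and CACGTG in Sirt1. Nmrk2 lies on the minus strand of chromosome 10, with its window at chr10:81201988-81202287. Sirt1 also lies on the minus strand of chromosome 10, with its window at chr10:63338986-63339285. Nampt lies on the plus strand of chromosome 12, with its window at chr12:32820085-32820384.
Nmrk2: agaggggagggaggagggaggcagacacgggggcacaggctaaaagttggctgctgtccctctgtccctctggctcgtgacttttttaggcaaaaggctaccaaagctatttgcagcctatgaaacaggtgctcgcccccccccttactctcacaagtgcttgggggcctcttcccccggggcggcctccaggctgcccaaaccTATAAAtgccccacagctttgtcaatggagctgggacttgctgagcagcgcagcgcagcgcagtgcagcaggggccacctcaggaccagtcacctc
Sirt1: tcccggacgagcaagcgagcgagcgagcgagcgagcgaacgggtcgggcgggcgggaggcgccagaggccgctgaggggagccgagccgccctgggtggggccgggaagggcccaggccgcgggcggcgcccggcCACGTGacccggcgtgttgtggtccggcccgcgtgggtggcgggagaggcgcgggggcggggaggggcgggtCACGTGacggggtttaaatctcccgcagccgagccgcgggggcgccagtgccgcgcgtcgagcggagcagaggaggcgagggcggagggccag
Nampt: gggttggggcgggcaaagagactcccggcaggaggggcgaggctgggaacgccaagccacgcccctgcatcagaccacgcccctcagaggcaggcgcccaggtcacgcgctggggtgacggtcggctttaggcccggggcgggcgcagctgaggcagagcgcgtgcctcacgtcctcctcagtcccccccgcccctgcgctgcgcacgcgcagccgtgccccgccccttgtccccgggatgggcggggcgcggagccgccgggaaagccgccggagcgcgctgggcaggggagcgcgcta

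These windows were searched on both strands for 6 motifs, and positions are those of the first base of a match. The E box was searched as CANNTG and in its palindromic form CACGTG, which is also counted as CANNTG. The TATA box was searched as TATAAA. Nmrk2 held TATAAA 46 bases before its start site and CANNTG at 125 and 97 bases before it. TATAAA occurred in 13.6% and CANNTG in 72.3% of all 32851 windows of that length. Sirt1 held CACGTG at 115 and 43 bases before its start site, and 7.15% of all windows held that motif. Nampt held CANNTG 105 bases before its start site and no other motif of the 6. The STAT core TTCNNNGAA, held by 8.3% of all windows, was not found in the windows of the 8 genes. The C/EBP motif TTGCGCAA, held by 0.183%, and the forkhead motif TGTTTAC, held by 3.65%, were not found there either. These matches describe the letters of the windows and say nothing on binding.

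Counts per library summed to 19259763 to 74907810 in quadriceps and 26306377 to 56308545 in fat. Levels are CPM, the usual per-library scale of counts, here on the TMM-normalized library size, and 3 counts, taken as the limit that 0 allows, correspond to 0.0462 to 0.154 CPM in quadriceps and 0.0474 to 0.123 CPM in fat. Expression varied more between fat pads than between quadriceps, with a common biological coefficient of variation of 63.5% against 22.7%. The summed CPM of 6 skeletal muscle markers was 126339 to 157060 in no tumor, 90837 to 110463 in KPC and 146010 to 160202 in KPC IL6KO quadriceps. Summed over 3 fibroblast markers it was 507 to 545 in no tumor, 153 to 248 in KPC and 295 to 410 in KPC IL6KO quadriceps, and neither set overlapped between KPC and the other groups. The part of either in the KPC values below was not tested. Every fat pad expressed adipocyte markers (915.6 to 17184 CPM summed over 5 genes), but the pads also held transcripts of the adjoining epididymis. Its gene Gpx5 reached 21347 to 54957 CPM in 7 pads (KPC 5 to 8, no tumor 5 and 7, KPC IL6KO 6). The remaining 5 pads had 4.69 to 85.8 CPM but were not free of epididymis transcripts: 5 epididymis markers summed to 733 to 17896 CPM in them against 38085 to 80427 CPM in the 7, and Crisp1, one of these markers, was at 621 to 14517 CPM against 156 to 5754 CPM. Il6, edited only in the injected KPC IL6KO cells, was in the hosts' fat at no more than 0.0632 CPM in no tumor, 2.02 to 5.30 CPM in KPC and 0.0343 to 4.77 CPM in KPC IL6KO pads, and was not analysed in quadriceps. In bulk tissue, fewer cells of a type and less RNA per cell cannot be told apart.

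Nmrk2, the muscle riboside kinase (chromosome 10, 81198170 to 81202051 on GRCm38), was nearly lost in KPC quadriceps. Its level was 120.0, 84.1 and 118 CPM in the 3 no tumor mice. It was 1.16, 2.43, 3.03 and 1.90 CPM in the 4 KPC mice, from 75 to 185 counts, well above the limit of 3 counts. In the 4 KPC IL6KO mice it was 332, 203, 140.3 and 392 CPM. The 3 groups did not overlap: KPC mice were lowest, no tumor mice intermediate and KPC IL6KO mice highest. The fitted log2 fold change (FC) was -5.66 (SE 0.41; 50.5-fold lower) in KPC against no tumor and -6.97 (SE 0.42; 125-fold lower) in KPC against KPC IL6KO.

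**Figure D1:**
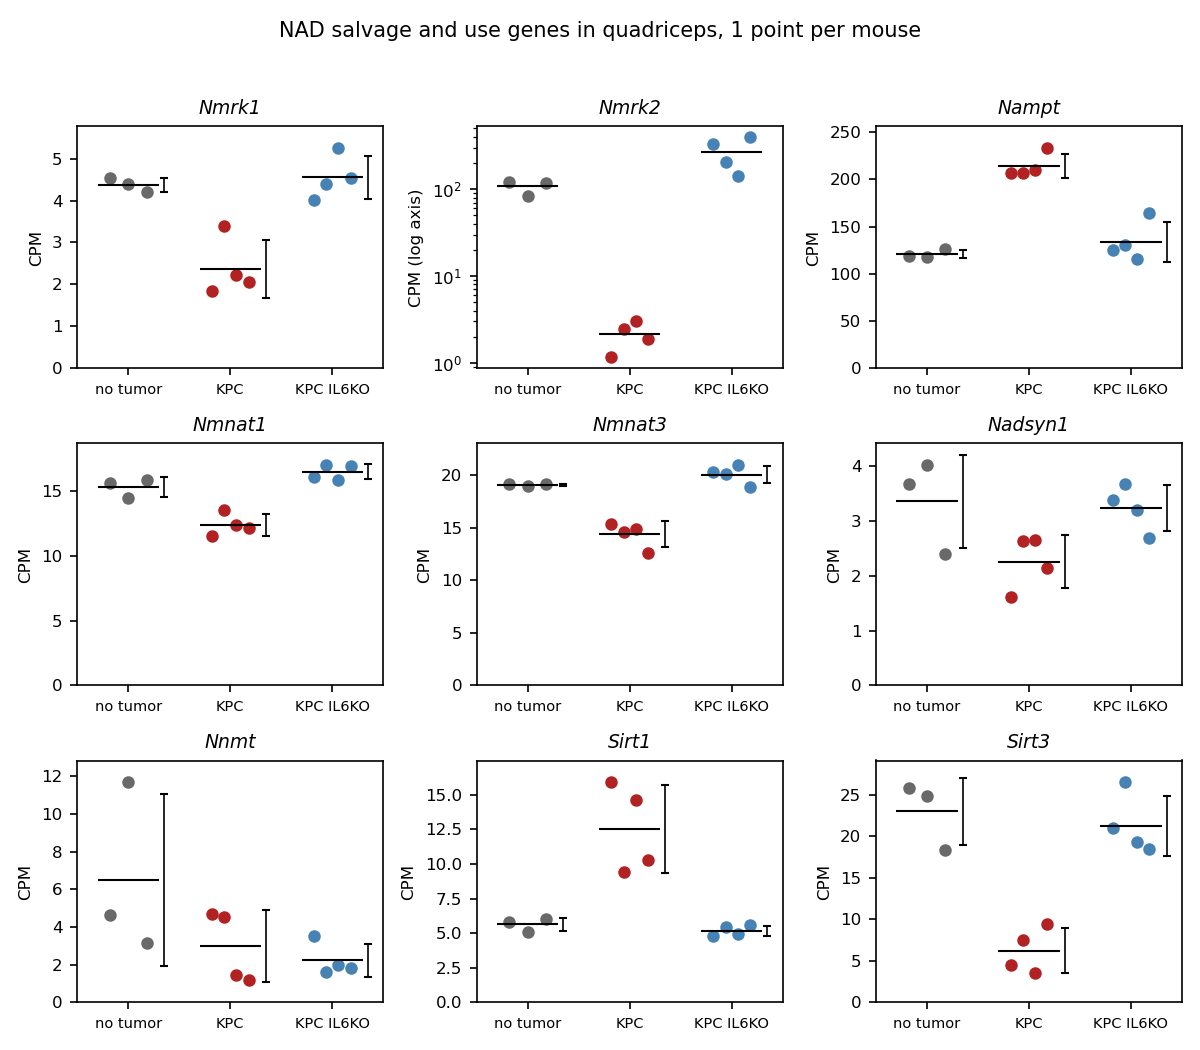
Level of each of the 9 genes in quadriceps, in CPM (linear axes from 0, except a log axis for Nmrk2), with 1 point per mouse for no tumor (3), KPC (4) and KPC IL6KO (4). Horizontal lines are group means and bars are mean ± SD (not drawn on the log axis). The 4 KPC mice lie below all others for Nmrk2 (1.16 to 3.03 CPM), Nmrk1, Nmnat1, Nmnat3 and Sirt3, and above all others for Nampt and Sirt1.

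Nmrk1, the riboside kinase found in most tissues (chromosome 19, 18631950 to 18652428), moved the same way but far less. It was at 4.54, 4.39 and 4.20 CPM in no tumor mice and at 1.85, 3.39, 2.23 and 2.05 CPM in KPC mice. KPC IL6KO mice were at 4.02, 4.40, 5.24 and 4.54 CPM. All 4 KPC mice were below every other mouse, KPC 2 coming nearest to them, and the other 2 groups overlapped. The log2 FC was -0.88 (SE 0.21) against no tumor and -0.94 (SE 0.19) against KPC IL6KO.

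Relative to its exonic length, Nmrk2 was the main riboside kinase transcript of quadriceps in no tumor and KPC IL6KO mice. Its level as RPKM (CPM per kilobase of exon) was 52.6, 38.1 and 56.1 times that of Nmrk1 in the 3 no tumor mice. In the 4 KPC mice the ratio was 1.24, 1.43, 2.71 and 1.84, and in the 4 KPC IL6KO mice 164, 91.9, 53.3 and 172. Nmrk2 thus made up 97.4% to 98.2% of both transcripts without a tumor, 55.4% to 73.02% with KPC and 98.2% to 99.4% with KPC IL6KO. The KPC mice had both kinases at similar low levels, as the plot of the riboside kinases by mouse shows.

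**Figure D2:**
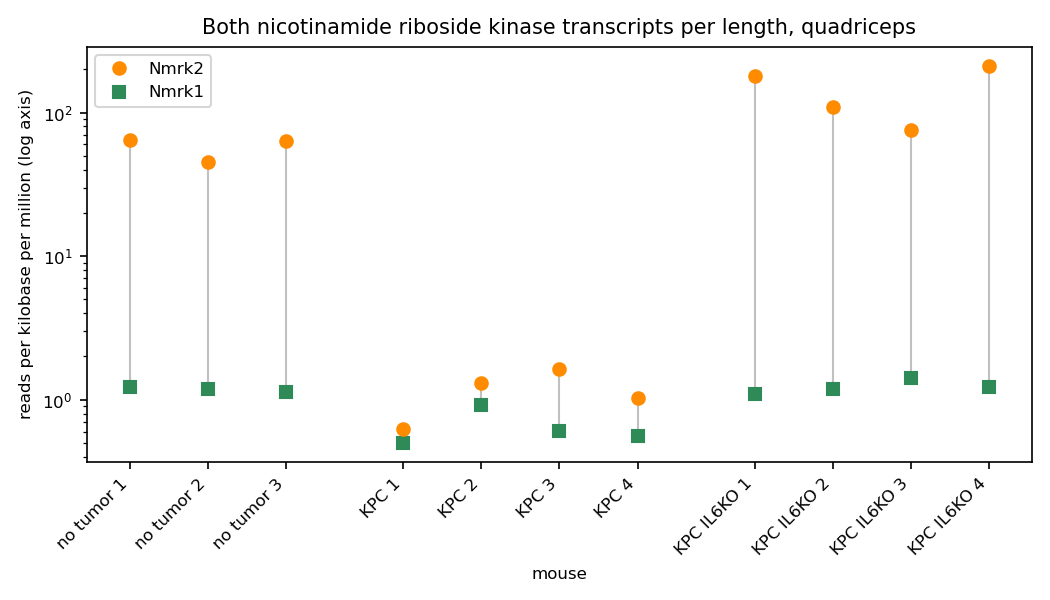
Nmrk2 (circles) and Nmrk1 (squares) in each quadriceps library, in RPKM (log axis), with a grey line joining the genes of 1 mouse. Nmrk2 is at 45.4 to 211.6 in no tumor and KPC IL6KO mice and at 0.623 to 1.63 in KPC mice, where it approaches Nmrk1.

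Nampt, the rate-limiting salvage enzyme (chromosome 12, 32819545 to 32853349), was higher in KPC quadriceps. No tumor mice were at 119, 118 and 126 CPM, and KPC mice at 207, 206, 210.2 and 232 CPM. KPC IL6KO mice were at 125, 130.0, 116 and 165 CPM. No KPC mouse overlapped another group, while KPC IL6KO overlapped no tumor with KPC IL6KO 4 as its highest mouse. The log2 FC was 0.82 (SE 0.12; 1.77-fold) against no tumor and 0.68 (SE 0.11; 1.60-fold) against KPC IL6KO.

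The Nmnat enzymes that follow Nampt and the riboside kinases changed little in size. Nmnat1, the nuclear form (chromosome 4, 149467572 to 149485202), was at 15.7, 14.5 and 15.9 CPM in no tumor, 11.6, 13.6, 12.4 and 12.1 CPM in KPC and 16.1, 17.0, 15.9 and 17.0 CPM in KPC IL6KO quadriceps. Nmnat3, the mitochondrial form (chromosome 9, 98287435 to 98420438), was at 19.2, 19.0 and 19.2 CPM in no tumor, 15.4, 14.6, 14.9 and 12.6 CPM in KPC and 20.3, 20.2, 20.9 and 18.9 CPM in KPC IL6KO. In both genes the KPC mice lay below all others. Their log2 FCs against no tumor, -0.31 (SE 0.10) for Nmnat1 and -0.41 (SE 0.10) for Nmnat3, were below the 1.5-fold that a call required, as were -0.41 (SE 0.09) and -0.48 (SE 0.09) against KPC IL6KO.

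Nadsyn1, NAD synthetase (chromosome 7, 143795584 to 143822849), was low in quadriceps. It was at 3.67, 4.02 and 2.41 CPM in no tumor mice, 1.62, 2.64, 2.65 and 2.15 CPM in KPC mice and 3.39, 3.68, 3.21 and 2.69 CPM in KPC IL6KO mice. KPC overlapped no tumor through no tumor 3 and lay just under KPC IL6KO. The log2 FC of -0.59 (SE 0.23) against no tumor stood at the edge of the call and was lost under DESeq2 (-0.55), RLE normalization (-0.54), a fit of only the groups compared (-0.56) and without any 1 of 6 libraries (no tumor 1 or 2, KPC 1 or 4, KPC IL6KO 1 or 3), being -0.44 without no tumor 2. Against KPC IL6KO it was -0.52 (SE 0.21), under 1.5-fold, and was called without KPC 2 (-0.60), KPC 3 (-0.60) or KPC IL6KO 4 (-0.60).

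Nnmt, the nicotinamide methyltransferase (chromosome 9, 48591877 to 48605153), differed between mice more than between groups. It was at 4.66, 11.7 and 3.12 CPM in no tumor, 4.70, 4.55, 1.47 and 1.19 CPM in KPC and 3.53, 1.61, 1.97 and 1.82 CPM in KPC IL6KO quadriceps. All groups overlapped, and no tumor 2 alone exceeded 5 CPM. The log2 FC of KPC against no tumor was -1.13 (SE 0.54), not called, and it was -0.40 without no tumor 2, while it was called without no tumor 3 (-1.45) or KPC 1 (-1.44). Adipocyte transcripts moved with it: the 5 adipocyte markers summed to 516, 1330.2 and 293 CPM in no tumor, 469, 659, 169 and 121 CPM in KPC and 308, 137, 269 and 172 CPM in KPC IL6KO quadriceps. No tumor 2 was highest in both measures and KPC 4 lowest in both, with all 5 markers detected in every mouse; their part in the Nnmt values was not tested.

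The 2 sirtuins moved in opposite directions. Sirt1, the nuclear deacetylase (chromosome 10, 63319005 to 63381704), was at 5.78, 5.11 and 6.04 CPM in no tumor, 15.9, 9.41, 14.6 and 10.3 CPM in KPC and 4.83, 5.44, 4.92 and 5.56 CPM in KPC IL6KO quadriceps. Sirt3, the main mitochondrial deacetylase (chromosome 7, 140863666 to 140882309), was at 25.8, 24.8 and 18.4 CPM in no tumor, 4.53, 7.50, 3.50 and 9.43 CPM in KPC and 21.0, 26.5, 19.3 and 18.4 CPM in KPC IL6KO. In each gene the KPC mice stood apart from all others, above them for Sirt1 and below them for Sirt3. Sirt1 had a log2 FC of 1.15 (SE 0.19) against no tumor and 1.27 (SE 0.17) against KPC IL6KO. Sirt3 had a log2 FC of -1.89 (SE 0.29) and -1.77 (SE 0.27) in the same comparisons. In the KPC mice Sirt1 was highest in KPC 1 and 3, where Sirt3 was lowest.

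Per exonic length, the order of mean levels in no tumor quadriceps was Nmrk2 (57.97 ± 10.9 RPKM, SD, n = 3), Nampt (23.9 ± 0.896), Nmnat1 (5.05 ± 0.250), Nnmt, Sirt3, Nmnat3 (3.82 ± 0.0226), Nmrk1, Sirt1 and Nadsyn1 (1.02 ± 0.256). Nmrk2 and Nampt stood clear of each other and of the rest. From Nmnat1 to Nmnat3 each gene overlapped the next, as did Sirt1 and Nadsyn1.

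In counts, KPC against no tumor quadriceps gave 2 genes higher (Nampt, Sirt1) and 4 lower (Nmrk2, Nmrk1, Sirt3, Nadsyn1) of the 9 at an FDR of at most 0.05 and 1.5-fold, by edgeR's quasi-likelihood test over all genes. The same rule called 55.7% of all 12831 genes, 26.7% higher and 29% lower. The groups did not overlap for 7 of the 9, against 65.3% of all genes. KPC against KPC IL6KO gave 2 higher and 3 lower (Nmrk2, Nmrk1, Sirt3), where 53.6% of all genes were called (26.4% higher, 27.3% lower), and 8 of 9 that did not overlap, against 62% of all genes. The median log2 FC of the 9 was -0.59 against no tumor and -0.48 against KPC IL6KO, and the median over all genes -0.03 and -0.01. Because the genes were chosen with this pattern known, these counts are a description only.

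Quadriceps of KPC IL6KO mice differed from no tumor quadriceps in none of the 9 genes by edgeR's quasi-likelihood test, which also called 0% of all genes. At an unadjusted p under 0.05 the test had 887 genes (6.91% of all), among them Nmrk2 and Nnmt. Nmrk2 had a log2 FC of 1.31 (SE 0.36; 95% interval 0.53 to 2.10; FDR 0.340) and was higher in 4 of 4 KPC IL6KO mice than in any no tumor mouse. DESeq2 gave it a log2 FC of 1.33 with an FDR of 0.0280, a call, in a fit that called 0.728% of all genes. The likelihood ratio test (FDR 0.0558, 0.74% of all genes called) and the newer quasi-likelihood fit (FDR 0.291) did not call it. Nnmt had a log2 FC of -1.56 (SE 0.55; FDR 0.527), which was -0.82 without no tumor 2. The other 7 genes had log2 FCs between -0.12 and 0.14 with FDRs of at least 0.986, and the 95% interval was -0.12 to 0.41 for Nampt, -0.53 to 0.29 for Sirt1 and -0.74 to 0.51 for Sirt3. Nmrk2 and Nmnat1 did not overlap between these groups, as was the case for 15.5% of all genes.

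**Figure D3:**
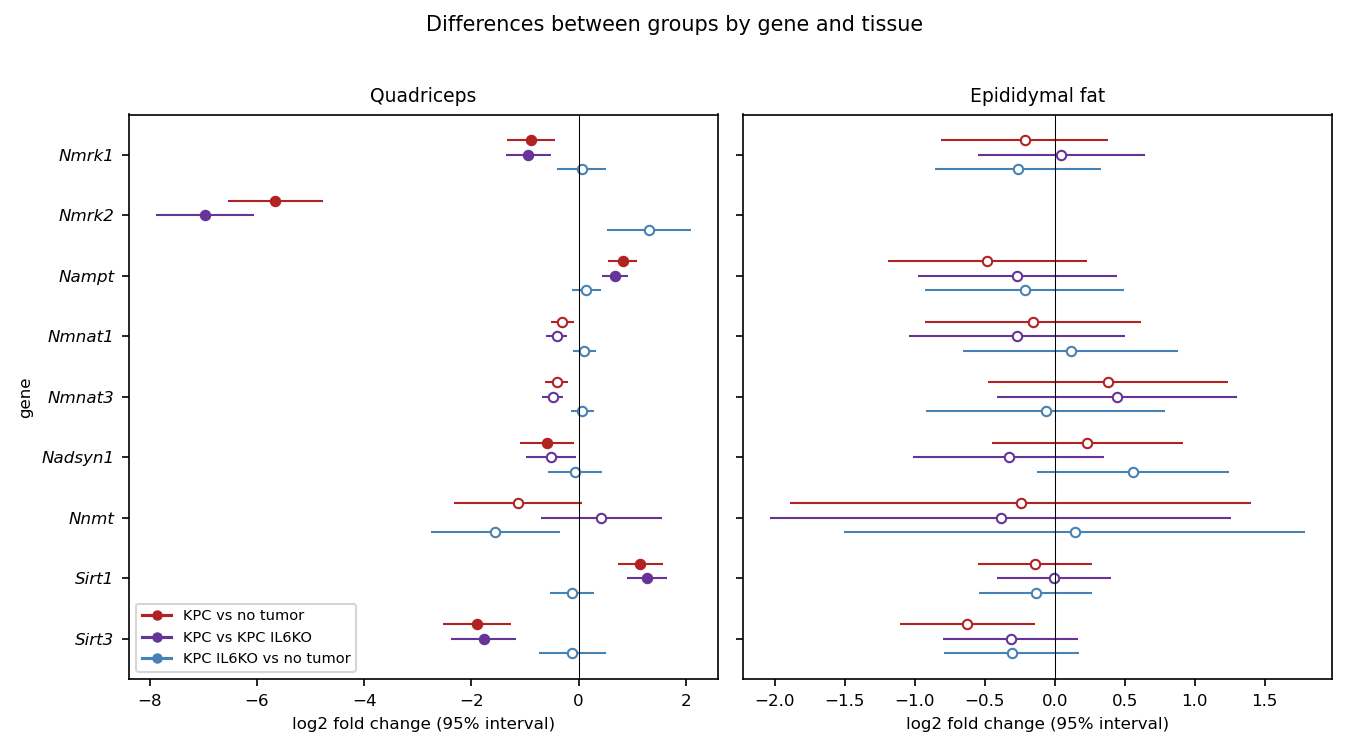
Fitted log2 FC (points) with its 95% interval (lines) for each gene in quadriceps and epididymal fat, for KPC vs no tumor (red), KPC vs KPC IL6KO (purple) and KPC IL6KO vs no tumor (blue). Filled points pass an FDR of 0.05 and 1.5-fold. In quadriceps filled points occur only in the 2 comparisons with KPC, where they are a description, and in fat no point is filled. The 2 panels have different horizontal scales.

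In epididymal fat none of the 8 genes was called in any of the 3 comparisons by edgeR's quasi-likelihood test, and neither was any other gene (0% of 16962 each time). At an unadjusted p under 0.05 that test had 2061 genes (12.2%) in KPC against no tumor, 1584 (9.34%) in KPC IL6KO against no tumor and 1062 (6.26%) in KPC against KPC IL6KO. DESeq2 called 3.46%, 1.69% and 0.74% of all genes in these comparisons, again none of the 8. The likelihood ratio test called 2.43%, 1.23% and 0.389% and the newer quasi-likelihood fit 0.0943%, 0% and 0.0059%, also none of the 8. Against no tumor the likelihood ratio test called 268 genes higher and 145 lower in KPC and 209 higher and 0 lower in KPC IL6KO. The study reports these same counts at the same cut-offs. No gene of the 8 separated 2 groups without overlap, where 10.9%, 2.01% and 4.33% of all genes did. The intervals in fat were wide, so that for Nnmt, Nmrk1 and Nadsyn1 the interval of KPC against no tumor reached across 0 and included changes of 1.5-fold.

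Nampt in fat was at 100.5, 231, 83.1 and 138 CPM in no tumor 5 to 8, 115, 103, 78.9 and 99.0 CPM in KPC 5 to 8 and 76.3, 98.2, 146 and 154 CPM in KPC IL6KO 5 to 8. The groups overlapped, with the highest values in no tumor 6 and in KPC IL6KO 7 and 8. Its log2 FC in KPC against no tumor was -0.48 (SE 0.32; 95% interval -1.19 to 0.23; FDR 0.600). Leaving out no tumor 6 brought the fat value to -0.12, and leaving out the 5 pads low in Gpx5 turned it to 0.19.

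Sirt1 in fat was at 36.6, 32.3, 32.6 and 31.2 CPM in no tumor, 26.2, 36.6, 24.9 and 32.6 CPM in KPC and 21.8, 36.04, 29.5 and 33.3 CPM in KPC IL6KO pads. Its log2 FC was -0.14 (SE 0.18; 95% interval -0.55 to 0.26; FDR 0.764) in KPC and -0.14 (SE 0.18; FDR 0.790) in KPC IL6KO against no tumor. Sirt3 was at 12.8, 19.0, 15.8 and 20.1 CPM in no tumor, 8.67, 10.3, 12.9 and 12.03 CPM in KPC and 10.7, 14.5, 15.9 and 13.5 CPM in KPC IL6KO pads. It was the only one of the 8 with an unadjusted p under 0.05 in fat: in KPC against no tumor its log2 FC was -0.62 (SE 0.22; 95% interval -1.11 to -0.14; FDR 0.311), and KPC 7 exceeded no tumor 5 by a small margin.

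Nmrk1 was at 14.3, 12.01, 15.7 and 15.8 CPM in no tumor, 13.8, 14.7, 10.04 and 11.3 CPM in KPC and 6.75, 14.8, 15.9 and 10.8 CPM in KPC IL6KO pads, which overlapped. Its log2 FC was -0.22 (SE 0.27; FDR 0.758) in KPC against no tumor. Nadsyn1 had the largest difference of KPC IL6KO from no tumor fat, a log2 FC of 0.56 (SE 0.31; 95% interval -0.12 to 1.25; FDR 0.624), which rested partly on the 19.5 CPM of KPC IL6KO 5 and was 0.26 without it. Nmnat1 ranged from 3.36 to 8.20 CPM over the 12 pads, and its log2 FCs lay between -0.27 and 0.11 with FDRs of at least 0.879.

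Nnmt and Nmnat3 differed widely between pads of 1 group. Nnmt was at 37.2, 161, 13.1 and 48.8 CPM in no tumor, 121, 48.4, 30.5 and 19.7 CPM in KPC and 33.9, 49.3, 128 and 76.1 CPM in KPC IL6KO pads. No group was set apart, and its log2 FC in KPC against no tumor was -0.24 (SE 0.75; 95% interval -1.89 to 1.40; FDR 0.916). The 5 adipocyte markers summed to 2684, 17184, 916 and 5613 CPM in no tumor, 8243, 3432, 1941 and 1561 CPM in KPC and 2551, 3309, 10157 and 4857 CPM in KPC IL6KO pads. Within each group the pads had the same order by Nnmt as by these markers, whose part in the Nnmt values was not tested. Nmnat3 was at 30.1, 14.9, 23.2 and 10.4 CPM in no tumor, 29.5, 33.7, 21.3 and 17.7 CPM in KPC and 13.6, 32.03, 13.01 and 16.5 CPM in KPC IL6KO pads. It was 17.7 to 33.7 CPM in the 7 pads high in Gpx5 and 10.4 to 16.5 CPM in the 5 low ones, without overlap. The share of all genes that separated these pads was not counted, so this is not read as particular to Nmnat3. All 4 KPC pads were high in Gpx5, 2 of 4 no tumor and 1 of 4 KPC IL6KO pads. Its log2 FC in KPC against no tumor was 0.38 (SE 0.39; FDR 0.709) over all pads and -0.01 with Gpx5 as a covariate.

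**Figure D4:**
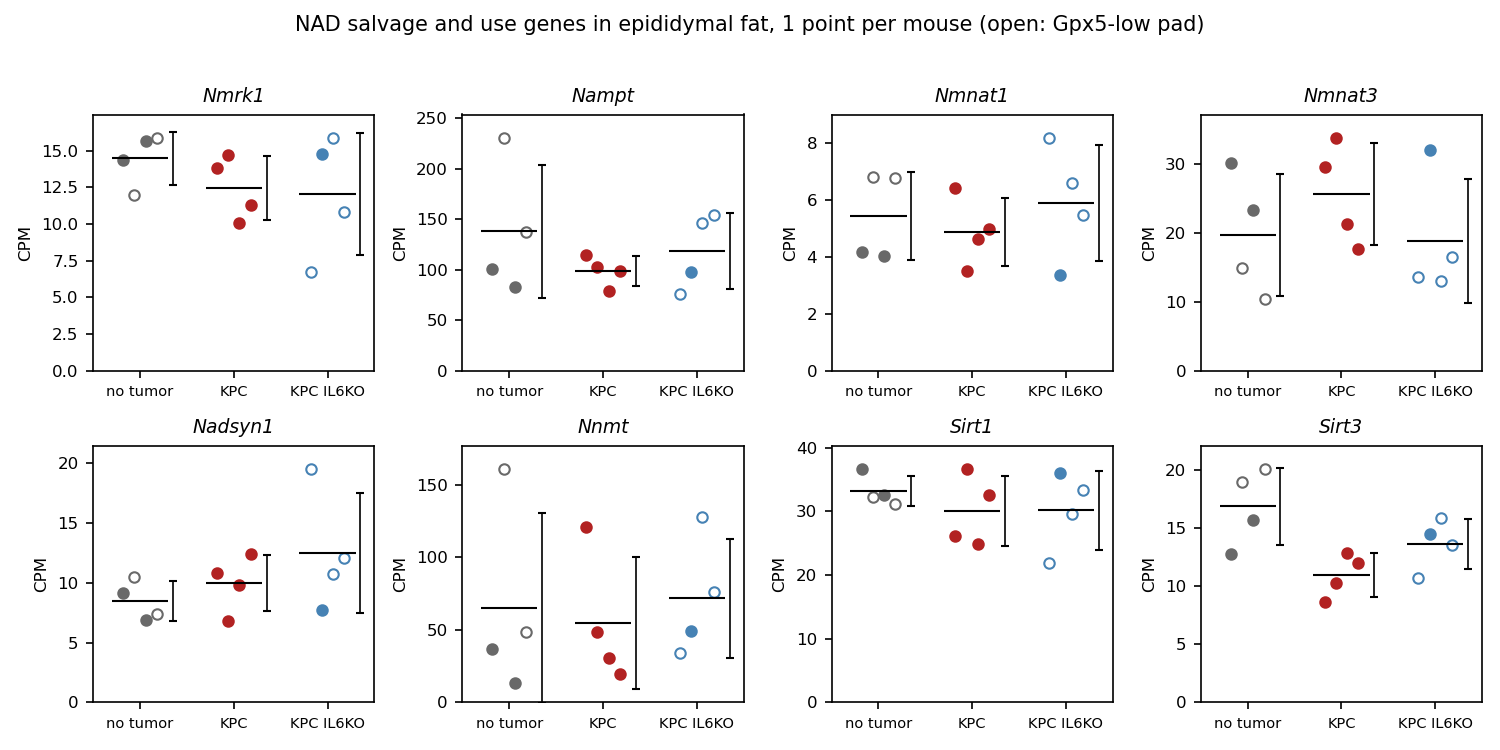
Level of 8 genes in epididymal fat, in CPM (linear axes from 0), with 1 point per mouse and 4 mice per group; filled points are the 7 pads high in Gpx5 and open points the 5 low ones. Lines are group means and bars mean ± SD, cut at 0 for Nnmt. The groups overlap for every gene, and for Nmnat3 the filled points (17.7 to 33.7 CPM) lie above the open ones (10.4 to 16.5 CPM).

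Per exonic length, Nnmt (41.2 ± 41.6 RPKM, SD, n = 4) and Nampt (27.3 ± 13.01) were the highest of the 8 in no tumor fat and overlapped each other. Sirt1 (6.23 ± 0.443), Nmnat3, Nmrk1, Sirt3, Nadsyn1 and Nmnat1 (1.80 ± 0.511) followed, each overlapping the next.

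The log2 FC in quadriceps minus that in fat was fitted over all 23 libraries, taken as independent although some mice may have given both tissues. Since the quadriceps values in this difference were known when the genes were named, the values are a description, without FDRs. In KPC against no tumor the difference was 1.18 (SE 0.25) for Sirt1, 1.20 (SE 0.37) for Nampt, -1.37 (SE 0.38) for Sirt3, -0.93 for Nadsyn1, -0.91 for Nmnat3 and -0.76 for Nmrk1. In KPC against KPC IL6KO it was -1.61 (SE 0.36) for Sirt3, 1.13 (SE 0.24) for Sirt1, -1.12 (SE 0.34) for Nmrk1, -1.08 (SE 0.39) for Nmnat3 and 0.80 (SE 0.36) for Nampt. The call rule was met by 3 and 4 of the 8 genes in these comparisons and by 36.9% and 31.6% of all 12599 genes, and nothing is read from these counts. Without the 5 pads low in Gpx5, an alternative chosen after seeing the data that left 1 KPC IL6KO pad, assumed to vary like the other groups, Nmrk1 was at -0.72, Nmnat3 at -0.19, Nampt at 0.63 and Nmnat1 at -0.998 in KPC against KPC IL6KO.

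The wider NAD pathway was described with 49 other genes, of which 36 were analysed in quadriceps and 47 in fat. They were listed from general knowledge of NAD metabolism, but with earlier results of these data known. In quadriceps of KPC against no tumor mice 8 of the 36 rose and 13 fell by edgeR's quasi-likelihood test, and against KPC IL6KO 7 rose and 13 fell, beside the 55.7% and 53.6% of all genes called. The median log2 FC of the list was -0.20 and -0.11. KPC IL6KO against no tumor gave 0 calls, with 3 genes at an unadjusted p under 0.05, and the likelihood ratio test and DESeq2 gave 0 as well.

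Of the 5 other sirtuins 1 rose and 2 fell in KPC against no tumor quadriceps, where 55.7% of all genes were called. Sirt4 to Sirt7 were added after their values were seen, so their values are a description. No grouping by cell compartment is read from them. Sirt2, a mainly cytoplasmic deacetylase, had the highest level of the other sirtuins: 110.5, 114 and 124 CPM in no tumor, 208, 175, 231 and 183 CPM in KPC and 125, 130.1, 132 and 129 CPM in KPC IL6KO quadriceps. It rose in KPC, with a log2 FC of 0.78 (SE 0.11; FDR 8.66e-05) against no tumor. Sirt4 (-1.24, SE 0.26; FDR 0.00121) and Sirt5 (-1.16, SE 0.23; FDR 0.000785), both mitochondrial like Sirt3, fell, and Sirt6 (-0.11, FDR 0.587) and Sirt7 (0.01, FDR 0.971), both nuclear, were not called.

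ADP-ribosyl transferases are the other large group of NAD users, and 5 of 18 rose and 8 fell in KPC against no tumor, where 26.7% of all genes were called higher and 29% lower. Tnks (tankyrase) was at 16.1 to 18.5 CPM in no tumor, 41.4 to 69.2 CPM in KPC and 16.2 to 18.8 CPM in KPC IL6KO quadriceps, a log2 FC of 1.72 (SE 0.18; FDR 9.93e-06) against no tumor. Its paralog Tnks2 was not called (-0.29, FDR 0.0438, under 1.5-fold). Tnks2 and Parp1 (below) were added after their values were seen. The ecto-ADP-ribosyl transferase Art1 was the most abundant of the group, at 674 ± 106 CPM in KPC (SD, n = 4) and 425 ± 31.3 in no tumor (n = 3), and it rose (0.66, SE 0.14; FDR 0.00103), as did Art3 (1.13, SE 0.27; FDR 0.00269) and Parp4 (0.86, SE 0.15; FDR 0.000446). The 5 largest falls of the list were in Parp9 (-1.63), Parp8 (-1.62), Parp16 (-1.60), Parp10 (-1.48) and Parp12 (-1.36), with FDRs of 4.35e-06 to 0.000191. Parp1, the DNA damage responsive polymerase, fell as well (-0.70, SE 0.22, FDR 0.0129), from 84.8 ± 6.72 CPM (SD, n = 3) to 52.2 ± 16.2 (n = 4). Its lowest value was 28.0 CPM in KPC 3, and the other KPC mice were at 59.0 to 61.1 CPM. Without KPC 3, Parp1 and Art1 were no longer called against no tumor.

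Of the other entry and exit steps of NAD metabolism some moved in KPC quadriceps and some did not, where 55.7% of all genes were called against no tumor. Naprt, the enzyme that starts synthesis from nicotinic acid, fell (-1.04, SE 0.24; FDR 0.00245), and so did Afmid, the 1 gene of tryptophan-based synthesis analysed in quadriceps (-0.96, SE 0.20; FDR 0.00100). Nadk, the cytosolic NAD kinase that makes NADP, was not called against no tumor (0.16, FDR 0.337) but was higher in KPC than in KPC IL6KO (0.73, SE 0.13; FDR 0.000445); its mean in KPC IL6KO was 27.4 CPM and in no tumor 40.7 CPM (-0.57, FDR 0.289). Nadk2, the other NAD kinase of the list, was called higher in KPC (33.2 to 45.3 CPM) against no tumor (22.6 to 28.0 CPM). Without no tumor 2 or KPC 1 that call was lost, and Nadk2 was not called against KPC IL6KO (23.8 to 31.2 CPM). Slc25a51, the mitochondrial NAD carrier, was at 82.6 ± 6.95 CPM in KPC (SD, n = 4) and 83.3 ± 3.92 in no tumor (n = 3), with a log2 FC of -0.01 (95% interval -0.22 to 0.19). Cd38 (0.20, FDR 0.370), an NAD hydrolase of immune cells, and the aldehyde oxidase Aox1 (0.15, FDR 0.543) were not called. Nudt12, of the same role as Aox1, was called lower in KPC against both groups. Nt5e, of the same role as Cd38, was called higher in KPC against KPC IL6KO only, and not without KPC 4. Bst1, which resembles Cd38, had the largest rise of the list against no tumor (1.98, SE 0.43, FDR 0.00155). It was at 0.102 to 0.235 CPM in no tumor, in part at or under the limit of 3 counts, and at 0.489 to 1.03 CPM in KPC. KPC IL6KO mice were at 0.414, 0.316, 0.582 and 0.635 CPM, above every no tumor mouse and overlapping KPC. Bst1 was not called in KPC against KPC IL6KO by the quasi-likelihood test. Transcripts of 3 neutrophil markers were also higher in KPC quadriceps. They summed to 0.0512 to 0.294 CPM in no tumor, 3.93 to 20.6 CPM in KPC and 1.14 to 2.54 CPM in KPC IL6KO quadriceps. The order of the KPC mice differed: KPC 1 had the highest Bst1 (1.03 CPM) and the lowest neutrophil sum (3.93 CPM). The part of these markers in the Bst1 values was not tested.

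**Figure D5:**
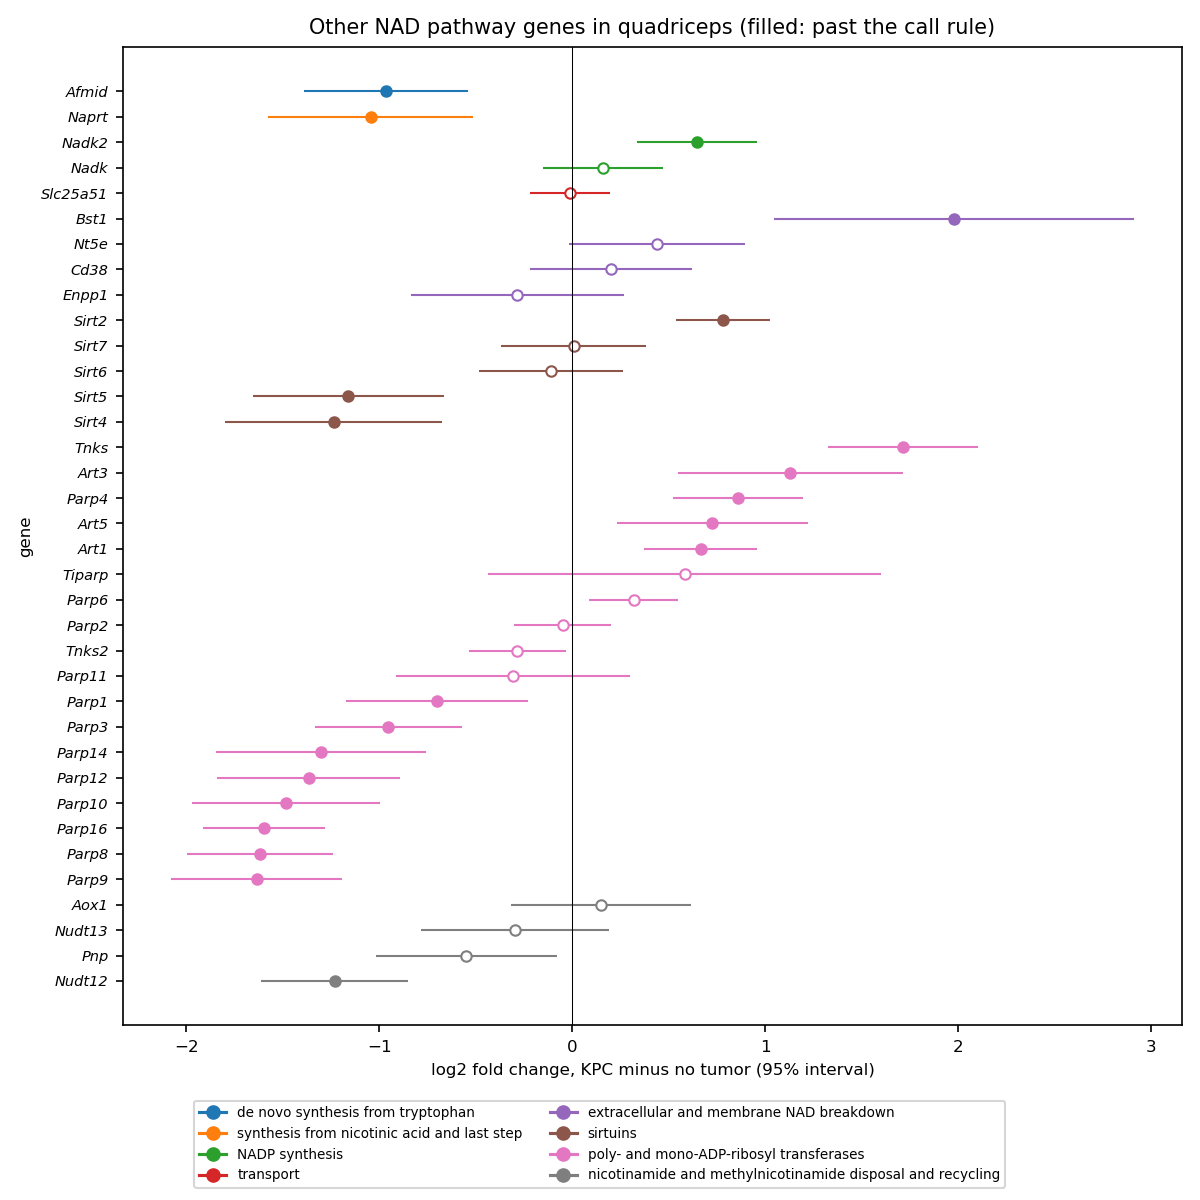
Log2 FC with 95% interval of the 36 other NAD pathway genes in KPC against no tumor quadriceps, ordered within their role and colored by it. Filled points pass an FDR of 0.05 and 1.5-fold: 8 lie to the right (Bst1 at 1.98 the farthest) and 13 to the left (Parp9 at -1.63 the farthest).

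In fat none of the 47 other NAD genes was called by the quasi-likelihood test in any comparison; 5, 4 and 2 had an unadjusted p under 0.05 in KPC against no tumor, KPC IL6KO against no tumor and KPC against KPC IL6KO. Cd38 had the smallest FDR of them. It was at 13.9, 27.8, 5.84 and 11.6 CPM in no tumor, 139, 102, 51.1 and 102 CPM in KPC and 49.6, 18.4, 40.2 and 109 CPM in KPC IL6KO pads, so that KPC lay above no tumor in 4 of 4 pads. Its log2 FC in KPC against no tumor was 2.74 (SE 0.59; FDR 0.191), which DESeq2 and the likelihood ratio test called, along with Bst1 (2.88, SE 0.86; FDR 0.255 in the quasi-likelihood test). The 5 macrophage markers summed to 177 to 713 CPM in no tumor, 782 to 1178 CPM in KPC and 282 to 2526 CPM in KPC IL6KO pads. The 4 neutrophil markers analysed summed to 0.535 to 3.94 CPM in no tumor, 13.3 to 44.6 CPM in KPC and 1.34 to 22.8 CPM in KPC IL6KO pads. Neither sum overlapped between KPC and no tumor, and the part of these markers in the Cd38 and Bst1 values was not tested.

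Likeness was measured over the 11 quadriceps libraries for the 10520 genes whose log2 CPM averaged at least 1. Those most like Nmrk2 were Spast (Pearson r of log2 CPM 0.993), Ccdc102a (0.992), Zmiz2 (0.990), Smox (0.989) and Mettl22 (0.987). For Nampt they were Lztfl1 (0.972), Mios (0.971), Nrd1 (0.970), Npc1 (0.968) and Pnpla8 (0.965). For Nnmt they were Smoc1 (0.980), Adora1 (0.972), Fabp4 (0.961), Npc2 (0.951) and Slc1a5 (0.951), of which Fabp4 is an adipocyte marker. The 4 KPC libraries did not overlap the no tumor libraries for 65.3% of all genes, and a gene that is low or high in all 4 has a high r with Nmrk2 or Nampt for that alone. The values describe likeness over libraries and carry no test.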

How the data were processed

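The authors checked reads with FastQC, aligned them with STAR to mm10, assigned uniquely mapped reads to genes with featureCounts 1.5.1 and deposited raw counts per gene for each tissue (low-count genes absent). Study methods and sample records name different library kits. Counts were normalized by TMM in edgeR 4.0.16 (R 4.3.3), with 1 quasi-likelihood F test model per tissue that held its 3 groups; filterByExpr removed no gene. A call needed a Benjamini-Hochberg FDR over all genes of at most 0.05 and at least 1.5-fold. SE is the log2 FC over the square root of F. The p-values set the difference between groups against the spread between mice within groups, not between clones. Exonic lengths (GENCODE M21) differ from the authors' UCSC annotation, so RPKM is approximate. Same-numbered mice, which are different animals, correlated at -0.155 to 0.265 in quadriceps and -0.539 to 0.650 in fat and were not paired. No libraries were duplicates. The pipeline was tested on simulated data.

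The 9 genes, the wider list and the markers were chosen with earlier results of these data known. Named genes were the 9, the called list genes (the 5 largest where more moved 1 way) and the most abundant of each role. The 5 most like Nmrk2, Nampt and Nnmt were named as well. Sirt4 to Sirt7, Tnks2, Parp1, Nadk2, Nudt12, Nt5e and the fat genes were added after their values were seen. Alternatives were DESeq2 1.42.0, the likelihood ratio test, the newer quasi-likelihood fit, other filters, RLE, only the groups compared, a replicate block, Gpx5 as a covariate, pads low in Gpx5 left out, and each library left out.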

Additional observations from a re-analysis of the deposited data

Results flagged for a closer look

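Nampt in quadriceps of KPC 4, at 232.5 CPM, lay apart from the other KPC mice (206 to 210.2 CPM). The gap was large for a group of 4 by Dixon's ratio, and it was 1 such value in 42 groups of mice examined, where chance gives about 1 in 20. Without this mouse the log2 FC of Nampt in KPC against no tumor was 0.78, against 0.82 with it. The same library had 97.3 CPM of the hepatocyte marker Alb, against at most 1.16 CPM in the other quadriceps libraries, and its part in the Nampt value was not tested.

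The log2 FC in quadriceps minus that in fat met the call rule for 7 results. The quadriceps values in each were known when the genes were named, so these are a description and no independent test. In KPC against no tumor the difference, quadriceps minus fat, was 1.20 for Nampt, 1.18 for Sirt1 and -1.37 for Sirt3. In KPC against KPC IL6KO it was -1.12 for Nmrk1, -1.08 for Nmnat3, 1.13 for Sirt1 and -1.61 for Sirt3. Tissue and library preparation cannot be told apart in these differences of within-tissue contrasts. Leaving out the pads low in Gpx5 gave 1.41 for Sirt1, 0.77 for Nampt and -1.44 for Sirt3 against no tumor and 1.49 for Sirt1, -1.41 for Sirt3, -0.72 for Nmrk1 and -0.19 for Nmnat3 against KPC IL6KO, where the last 2 no longer met the rule. That fit held 1 KPC IL6KO pad, assumed to vary like the other groups.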

How the results depend on the processing

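Of 568 results for single genes under alternatives other than leaving out a library, 528 kept their direction and their side of the threshold, 7 lost a call, 4 gained one and 29 changed sign. Every change of sign was in fat, in values not called: Sirt1 in KPC against KPC IL6KO was 0.017 by DESeq2, 0.019 with at least 10 counts in every library, 0.016 by RLE and 0.018 with only the groups compared. With Gpx5 as a covariate, KPC against no tumor gave Nmnat3 -0.012, Nmnat1 0.22 and Nnmt 0.56, KPC IL6KO against no tumor gave Nmnat3 0.23, Nmnat1 -0.061 and Nnmt -0.015, and KPC against KPC IL6KO gave Nampt 0.23, Nmnat3 -0.24, Nmrk1 -0.024, Nmnat1 0.28 and Nnmt 0.57. Without the pads low in Gpx5, KPC against no tumor gave Nampt 0.19, Nmnat1 0.34 and Nnmt 1.23, KPC IL6KO against no tumor gave Nampt 0.078, Nmnat3 0.25, Nadsyn1 -0.074, Sirt1 0.036 and Nmnat1 -0.31, and KPC against KPC IL6KO gave Nampt 0.12, Nmnat3 -0.22, Nmrk1 -0.14, Nadsyn1 0.48, Nmnat1 0.66 and Nnmt 0.26; the cause was not tested. DESeq2 called 1 of the 9 genes, Nmrk2, in KPC IL6KO against no tumor quadriceps. Of the other NAD genes in fat, KPC against no tumor gave 2 calls (Cd38 and Bst1) by DESeq2, by the likelihood ratio test and without the pads low in Gpx5, 1 (Bst1) with only the groups compared and 1 (Cd38) with Gpx5 as a covariate, against 0, and KPC IL6KO against no tumor gave 1 (Bst1) by DESeq2 and 1 by the likelihood ratio test.

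Leaving out 1 library at a time, the genes called among the 9 numbered 5 to 7 in KPC against no tumor quadriceps and 5 to 6 in KPC against KPC IL6KO, with none in the other comparisons within a tissue. The counts in the quadriceps comparisons with KPC are a description, since those values were known when the genes were named. The difference between tissues, a description, met the call rule 3 to 5 times in KPC against no tumor, the 5 without fat KPC IL6KO 5 or 6, and 3 to 5 times in KPC against KPC IL6KO. The log2 FC of Nmrk2 stayed between -5.88 and -5.45 in KPC against no tumor. These values crossed 0: in KPC IL6KO against no tumor quadriceps Nadsyn1 (-0.25 to 0.077) and Nmrk1 (-0.020 to 0.11); in the same comparison in fat Nmnat3 (-0.45 to 0.22), Nnmt (-0.31 to 1.12), Nampt (-0.39 to 0.15) and Nmnat1 (-0.085 to 0.31); in KPC against no tumor fat Nnmt (-0.98 to 0.73); in KPC against KPC IL6KO fat Nmrk1 (-0.15 to 0.25), Sirt1 (-0.13 to 0.092) and Nnmt (-1.12 to 0.083).

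Replicate numbers name different mice and did not pair them. With a replicate block the Nadsyn1 call in KPC against no tumor quadriceps was lost (-0.53) and no other call among the 9 genes changed. Limits of depth bear on Bst1 in no tumor quadriceps, where 3 counts are the floor.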
